A study of Mus musculus with 12 samples.

Results

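The comparison described here sets 3 libraries of mouse embryonic fibroblasts treated with RapaLink-1 at 10 nM against 3 libraries of the same cells treated with rapamycin at 20 ng/ml, each for 24 h. Its members are all genes that passed a filter on low counts, 15917 of the 49315 genes in the count tables. The series holds 12 libraries made from total RNA of these fibroblasts, which were grown in serum-containing medium; a step selecting messenger RNA is not given in the sources used here. The other 6 libraries, 3 with the solvent DMSO and 3 with Torin1 at 250 nM for 24 h, serve as reference levels. No group carries a genetic change according to the labels, and the labels are silent on whether each library is a culture of its own. The p-values below therefore measure only the spread between these libraries, which may be technical. The doses are stated in different units and were not matched between the drugs, so a difference belongs to the pair of treatments as given, not to equal exposure.

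mTOR is a kinase that works in a pair of protein complexes. mTORC1 (with Raptor) promotes ribosome production, translation, lipid and nucleotide synthesis and restrains lysosome biogenesis and autophagy, while mTORC2 (with Rictor) phosphorylates AKT and SGK kinases and so restrains FoxO transcription factors. Rapamycin binds the small immunophilin FKBP12, and the pair docks on the FRB domain of mTOR; this blocks some mTORC1 substrates, such as S6 kinase, more completely than others, such as the translation repressor 4E-BP1. RapaLink-1 is a rapamycin unit joined by a flexible linker to an ATP-competitive mTOR kinase inhibitor, so that one molecule can bind FKBP12 and the FRB domain and also reach the kinase site. Torin1 is an ATP-competitive inhibitor with no rapamycin unit. The comparison thus sets a drug with a rapamycin unit and a kinase-site group beside rapamycin itself. The drugs were given to separate libraries at doses that were not matched, so a difference cannot be assigned to the kinase-site group alone.

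Total counts ran from 30495065 to 38809352 in the rapamycin libraries and from 30075870 to 36206209 in the RapaLink-1 libraries. Levels are given as CPM, the reads of a gene per 1000000 reads of its library, with library totals scaled by edgeR's TMM factors. In a principal component analysis of the 6 libraries the first component held 68.9% of the variance, with rapamycin at -31.3 to -29.8 and RapaLink-1 at 30.4 to 31.2. No library stood between the groups. Marker levels are summed as CPM over unscaled totals. All 13 fibroblast markers were measured, with Lum under 1 CPM in each of the 6 libraries. The summed level of all 13 was 21563 to 21862 CPM with rapamycin and 19918 to 20192 CPM with RapaLink-1. Markers of other cells summed to under 5 CPM in each of the 6 libraries for endothelium, leukocytes, epithelium, muscle and pluripotent cells, with Cd3e, Myod1, Myog and Zfp42 at 0 counts. Neural markers summed to 77.3 to 85.9 CPM with rapamycin and 81.4 to 84.3 CPM with RapaLink-1, and adipocyte markers to 15.9 to 16.9 and 21.5 to 22.1 CPM. The share of counts on mitochondrial genes was 1.29 to 1.32% with rapamycin and 1.195 to 1.21% with RapaLink-1.

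RapaLink-1 and rapamycin left the fibroblasts with widely different messenger RNA. Genes for DNA replication, mitosis, sterol and fatty acid synthesis, amino acid supply, the proteasome and endoplasmic reticulum (ER) chaperones were lower with RapaLink-1. Genes for ribosomal proteins, lysosomes, contractile fibres, complement and antigen presentation were higher. By edgeR's quasi-likelihood test at an adjusted p under 0.05, 5088 genes were higher with RapaLink-1 (32.0% of those tested) and 5260 were lower (33.0%). These shares are the background for the list counts below. Most differences were small: the median absolute log2 fold change was 0.28, and 500 genes were higher (3.14%) and 409 lower (2.57%) by at least 2-fold. Among the 10484 genes averaging 5 CPM or more over the 12 libraries, 116 were higher and 140 lower by at least 2-fold. Upper-quartile scaling gave a split of 6296 higher and 4311 lower, since that scaling moved the median of all genes by 0.075 on the log2 scale. The 3 and 3 libraries did not overlap for 10722 genes (67.4%).

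**Figure D1:**
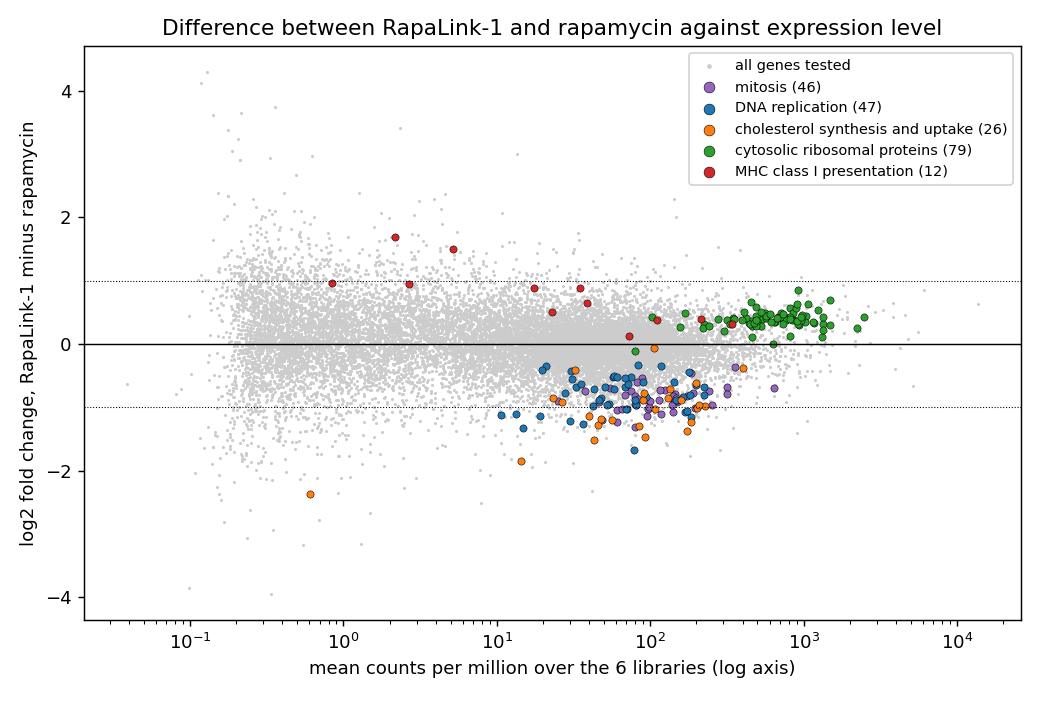
Log2 fold change of RapaLink-1 minus rapamycin against the mean CPM over the 6 libraries (log axis), 1 point per gene tested, with members of 5 gene lists in colour and dotted lines at 2-fold. All 47 replication, 46 mitosis and 26 cholesterol genes lie below 0, 77 of the 79 ribosomal protein genes were called higher and all 12 genes of class I antigen presentation lie above 0.

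The largest fall among genes averaging 10 CPM or more was in Mthfd2 (chr6:83305691-83325908, ENSMUSG00000005667 in GRCm38), a mitochondrial enzyme of folate one-carbon metabolism. It stood at 70.8, 67.9 and 70.9 CPM with rapamycin and 14.7, 13.7 and 13.8 CPM with RapaLink-1 (log2 fold change -2.32 ± 0.040 (SE), adjusted p = 6.6e-107). The groups were 4.98-fold apart. The Torin1 libraries were at 13.8 ± 0.555 CPM (mean ± SD, n = 3) and the DMSO libraries at 129 ± 1.43 CPM, so the 3 rapamycin libraries lay between DMSO and both other drugs. Ccne1, cyclin E1, which drives entry into S phase, fell 3.63-fold, from 32.9, 31.6 and 32.2 CPM to 9.603, 9.13 and 8.03 CPM (log2 fold change -1.86 ± 0.056 (SE), adjusted p = 8.8e-73). Other large falls were in Lrrc17 (-1.94), the surface antigen gene Ly6a (-1.88), the sterol reductase gene Tm7sf2 (-1.85), the ER protein gene Sdf2l1 (-1.82), the retinoic acid binding protein gene Crabp1 (-1.76), Gas2 (-1.74), the retrotransposon-derived imprinted gene Peg10 (-1.68) and Spp1, osteopontin (-1.67). Castor2, whose protein belongs to the family of CASTOR arginine sensors upstream of mTORC1, was at 25.9, 25.1 and 25.8 CPM with rapamycin and 6.92, 7.46 and 8.57 CPM with RapaLink-1 (log2 fold change -1.74 ± 0.060 (SE), adjusted p = 3.5e-64).

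At the other end stood Plin4 (chr17:56100591-56109803, ENSMUSG00000002831), a lipid droplet coat protein. It was at 3.35, 2.56 and 3.12 CPM with rapamycin and 23.2, 25.5 and 23.97 CPM with RapaLink-1, a difference of 7.99-fold (log2 fold change 3.00 ± 0.077 (SE), adjusted p = 1.8e-82), against 1.71 ± 0.119 CPM in DMSO. Zfas1 (chr2:167062934-167065862, ENSMUSG00000074578), a noncoding RNA whose introns hold small nucleolar RNAs, was at 48.5, 49.4 and 47.3 CPM with rapamycin and 243, 228 and 236 CPM with RapaLink-1 (log2 fold change 2.28 ± 0.026 (SE), adjusted p = 7.5e-113). All 3 rapamycin libraries were below the DMSO level of 62.1 ± 2.83 CPM, and all 3 RapaLink-1 libraries lay far above both. The remaining leading rises were in the adhesion receptor gene Selp, P-selectin (2.06), the lysosomal and melanosomal glycoprotein gene Gpnmb (1.75), Col27a1 (1.64), the glycogen-binding protein gene Stbd1 (1.61), the collagenase gene Mmp13 (1.6), Epb41l4aos (1.6), Hdac11 (1.55), the complement protease gene C1s1 (1.54), the tight junction gene Cgn (1.51), Anxa8 (1.5), C3 (1.48) and Slco4a1 (1.45). Groups that did not overlap were a condition for naming these genes. Selp is known from endothelium and platelets, and the endothelial markers summed to 1.57 to 2.31 CPM with rapamycin and 3.79 to 4.25 CPM with RapaLink-1; their part in the Selp value was not tested.

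Part of the exonic bases of some named genes lies in exons of another gene (10% or more is given here), and their values are less certain because the strand setting of the counting is not given in the sources used here. Among the genes named so far this holds for Spp1 (18.8%), Zfas1 (18.5%), C1s1 (18.4%), Hdac11 (17.9%), Tm7sf2 (15.3%) and Selp (14.1%). Below it holds for Hoxd4 (52.3%), S100a4 (51.7%), Arsb (48.8%), Tuba4a (37.3%), Ctsd (34.4%), Mlst8 (29.6%), Gabarapl1 (28.3%), Fdps (26.7%), Srsf2 (25.3%), Ccnd1 (23.4%), Ube2c (22.8%), Higd1a (22.5%), Rbl2 (21.0%), Snhg1 (20.9%), Snhg12 (20.5%), C1qtnf1 (20.5%), Uqcrc2 (19.7%), Gas5 (17.8%), Keap1 (10.9%), Ncapg (13.4%), Tapbp (22.0%), Sned1 (19.6%), Txnip (19.4%), Ctsa (17.4%), Ccne2 (17.4%), Sqstm1 (17.3%), Sfrp2 (16.1%), Aars (15.1%), Pkm (15.3%), Hsp90b1 (15.7%), Bhlhe41 (19.0%), Dnaja1 (10.8%), Ccna2 (12.5%) and E2f8 (11.2%).

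**Figure D2:**
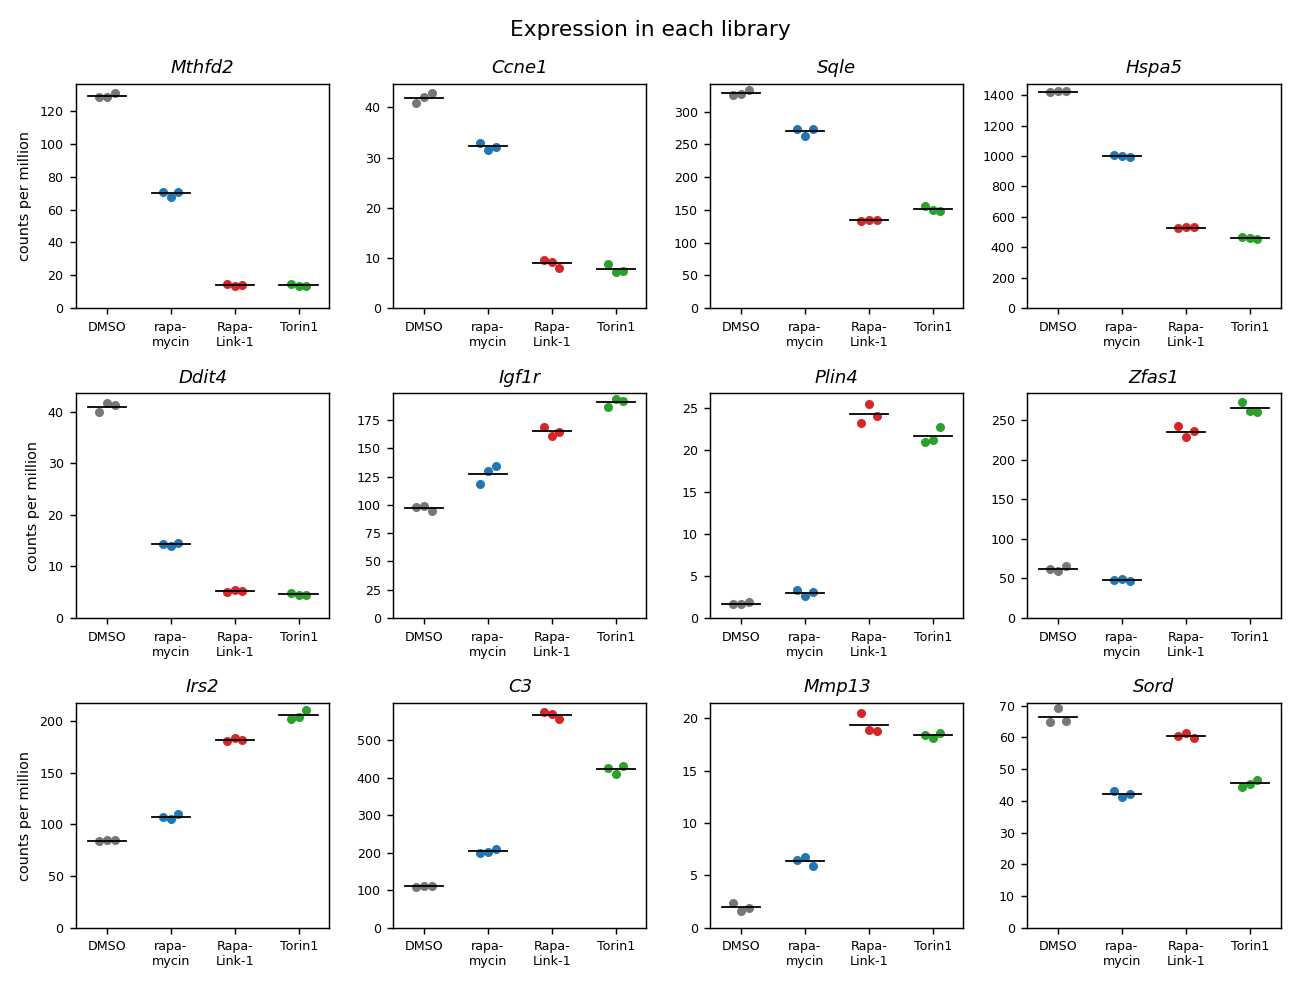
CPM of 12 genes in each of the 3 libraries of the 4 treatments (points), with the group mean as a line and each vertical axis starting at 0. For Mthfd2, Ccne1, Ddit4 and Plin4 the RapaLink-1 points lie near those of Torin1 and away from rapamycin, while for C3 and Sord they lie above both.

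Mtor was at 80.2, 83.5 and 80.5 CPM with rapamycin and 84.7, 82.9 and 81.1 CPM with RapaLink-1, with overlapping groups and an approximate 95% interval of the log2 difference of -0.04 to 0.09 (adjusted p = 0.41). Rptor, the mTORC1 scaffold Raptor, was lower (log2 fold change -0.23 ± 0.028 (SE), adjusted p = 4.4e-13), and Rictor, the mTORC2 scaffold, was higher (log2 fold change 0.31 ± 0.025 (SE), adjusted p = 8.9e-25). Mlst8, a subunit of both complexes, was lower (-0.66). Deptor, an inhibitory subunit of both, had overlapping groups and an interval of -0.22 to 0.04 (adjusted p = 0.17). Fkbp1a, which encodes the rapamycin receptor FKBP12, was at 364, 359 and 361 CPM with rapamycin and 272, 279.8 and 277 CPM with RapaLink-1 (log2 fold change -0.39 ± 0.018 (SE), adjusted p = 2.3e-49). Of 15 tested FK506-binding protein genes 10 were lower, against 33.0% of all genes, and 1 was higher. Fkbp5, a glucocorticoid receptor co-chaperone, was lowest (-0.92).

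Of the 44 genes of the mTOR complexes and their upstream pathway 14 were higher, near the 32.0% of all genes, and 22 lower, against 33.0%. Their median was -0.07, against 0.0084 over all genes. The falls included stress-induced inhibitors of mTORC1. Ddit4 (REDD1) stood at 14.3, 14.03 and 14.5 CPM with rapamycin and 5.13, 5.51 and 5.21 CPM with RapaLink-1 (log2 fold change -1.44 ± 0.073 (SE), adjusted p = 5.9e-44), against 40.998 ± 0.877 CPM in DMSO. Sesn2, a leucine sensor, went from 9.71, 8.79 and 9.52 CPM to 3.299, 3.78 and 3.39 CPM (log2 fold change -1.42 ± 0.091 (SE), adjusted p = 4.9e-33), and Sesn3 was lower too (-0.78). Tsc2, the GTPase-activating subunit of the TSC complex, was higher (0.45), whereas the Rag GTPase gene Rraga was lower (-0.48). The translation repressor gene Eif4ebp1 was lower (-0.24).

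Cell cycle genes differed in 1 direction. All 47 of 47 DNA replication genes and all 46 of 46 mitosis genes were lower with RapaLink-1, against 33.0% of all genes. No library overlapped between the groups for any of them, while 67.4% of all genes had no overlap. The replication list had a median log2 fold change of -0.77 and a range of -1.67 to -0.33; the mitosis list had a median of -0.88 and a range of -1.31 to -0.36. Each list held 11 genes that were at least 2-fold lower. In bulk RNA, fewer cells in a given phase and less RNA per cell cannot be told apart. Against DMSO the replication median was -0.35 for rapamycin and -1.07 for RapaLink-1, and the mitosis median was -0.21 for rapamycin and -1.06 for RapaLink-1.

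Among replication genes, Tk1, the thymidine kinase of S phase, was at 123, 119 and 115 CPM with rapamycin and 37.8, 37.3 and 37.3 CPM with RapaLink-1 (log2 fold change -1.67 ± 0.030 (SE), adjusted p = 1.7e-105). Rrm2, the regulated subunit of ribonucleotide reductase, was at 253, 256 and 250.83 CPM with rapamycin and 116, 111 and 114 CPM with RapaLink-1 (log2 fold change -1.16 ± 0.021 (SE), adjusted p = 1.7e-104), and its partner Rrm1 fell less (-0.81). Mcm5, a subunit of the replicative helicase, was at 234, 222 and 228 CPM with rapamycin and 110.3, 108 and 108 CPM with RapaLink-1 (log2 fold change -1.07 ± 0.021 (SE), adjusted p = 9.7e-98). The maintenance methylation factor gene Uhrf1 followed (-1.06). In each case the highest RapaLink-1 library was below the lowest rapamycin library.

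Among mitosis genes, Aurkb, the kinase of the chromosomal passenger complex, was at 116, 114 and 113 CPM with rapamycin and 46.1, 44.9 and 47.4 CPM with RapaLink-1 (log2 fold change -1.31 ± 0.029 (SE), adjusted p = 2.1e-91), and its partner Incenp was at 191, 189.9 and 191 CPM with rapamycin and 92.2, 90.1 and 89.2 CPM with RapaLink-1 (log2 fold change -1.07 ± 0.022 (SE), adjusted p = 2.6e-95). Ccna2, cyclin A2, fell 2.02-fold (-1.01). The proliferation marker Mki67 (-0.96) and the topoisomerase gene Top2a (-0.70) were lower as well. Of the 15 G1 cyclins and CDK inhibitors 13 were lower: Ccne1 as above, Ccne2 at 46.8, 48.9 and 46.05 CPM with rapamycin and 19.3, 18.9 and 18.8 CPM with RapaLink-1 (log2 fold change -1.31 ± 0.043 (SE), adjusted p = 6.3e-68), Ccnd1, cyclin D1, at 285, 283 and 285 CPM with rapamycin and 168, 163 and 161 CPM with RapaLink-1 (log2 fold change -0.80 ± 0.019 (SE), adjusted p = 2.1e-85), Ccnd2 (-0.60) and the inhibitor gene Cdkn2c (-0.89). Cdk6 was the 1 member called higher (0.06). The E2F and retinoblastoma family had 12 of 13 lower, with E2f8 (-1.23), Tfdp1 (-0.76), E2f7 (-0.71), E2f4 (-0.64) and Rbl1 (-0.78), and 1 higher, Rbl2 (0.09). Replication-dependent histone genes, whose main messages lack poly(A) tails, were mixed: 7 of 19 were lower and 3 higher, most of them under 1 CPM in both groups. Their median was -0.47. Hist1h1c, the 1 member averaging 5 CPM or more, was higher (0.35).

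E2F factors bind the promoters of S phase genes, and the cell cycle homology region (CHR) is a short element in promoters of mitosis genes that is read by the DREAM and MMB-FOXM1 complexes. RefSeq promoters of GRCm38.p6 (250 bases before to 50 after the annotated start) were matched by symbol. An E2F-type match (TTCCCGCC, TTTGGCGC, TTTCCCGC or TTTGGCGG on either strand, spellings that can overlap one another) lay in 21 of 44 promoters of the replication list (47.7%). The share was 6.4% of 13981 promoters of tested genes and 3.69% of all 32851 promoters. The CHR letters TTTGAA lay in 31 of 40 promoters of mitosis genes (77.5%), against 12% of the promoters of tested genes and 17.9% of all. CCAAT, which often accompanies it, lay in 77.5% as well, against 37.4% of both. A match is a description of these letters only. The stretches below show 4 replication and 4 mitosis genes that were lower with RapaLink-1, 5′ to 3′ on the gene's strand, with the match in capitals; they were picked after their values were seen.
Mcm5, chr8:75109345-75109382, plus strand: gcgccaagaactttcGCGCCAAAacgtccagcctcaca
Cdc6, chr11:98907998-98908035, plus strand: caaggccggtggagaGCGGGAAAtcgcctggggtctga
Uhrf1, chr17:56303274-56303311, plus strand: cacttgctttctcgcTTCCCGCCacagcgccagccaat
Rrm1, chr7:102441613-102441650, plus strand: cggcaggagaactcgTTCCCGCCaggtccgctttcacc
Cdc20, chr4:118437341-118437376, minus strand: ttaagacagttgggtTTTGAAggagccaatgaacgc
Kif11, chr19:37376348-37376383, plus strand: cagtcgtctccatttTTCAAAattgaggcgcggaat
Ube2c, chr2:164769885-164769920, plus strand: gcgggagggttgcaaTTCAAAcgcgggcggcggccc
Ncapg, chr5:45669880-45669915, plus strand: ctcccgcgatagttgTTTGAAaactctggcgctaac

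The matches began 149, 138, 48 and 67 bases before the annotated start in Mcm5, Cdc6, Uhrf1 and Rrm1. Those in the mitosis genes lay closer, 18, 19, 29 and 30 bases before the start in Cdc20, Kif11, Ube2c and Ncapg. Of the genes shown here for the first time, Cdc6, which loads the helicase, had a log2 fold change of -1.21. Cdc20, which activates the anaphase-promoting complex, had -1.11. The spindle motor gene Kif11 had -0.78, the ubiquitin-conjugating enzyme gene Ube2c -0.82 and the condensin gene Ncapg -0.86.

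**Figure D3:**
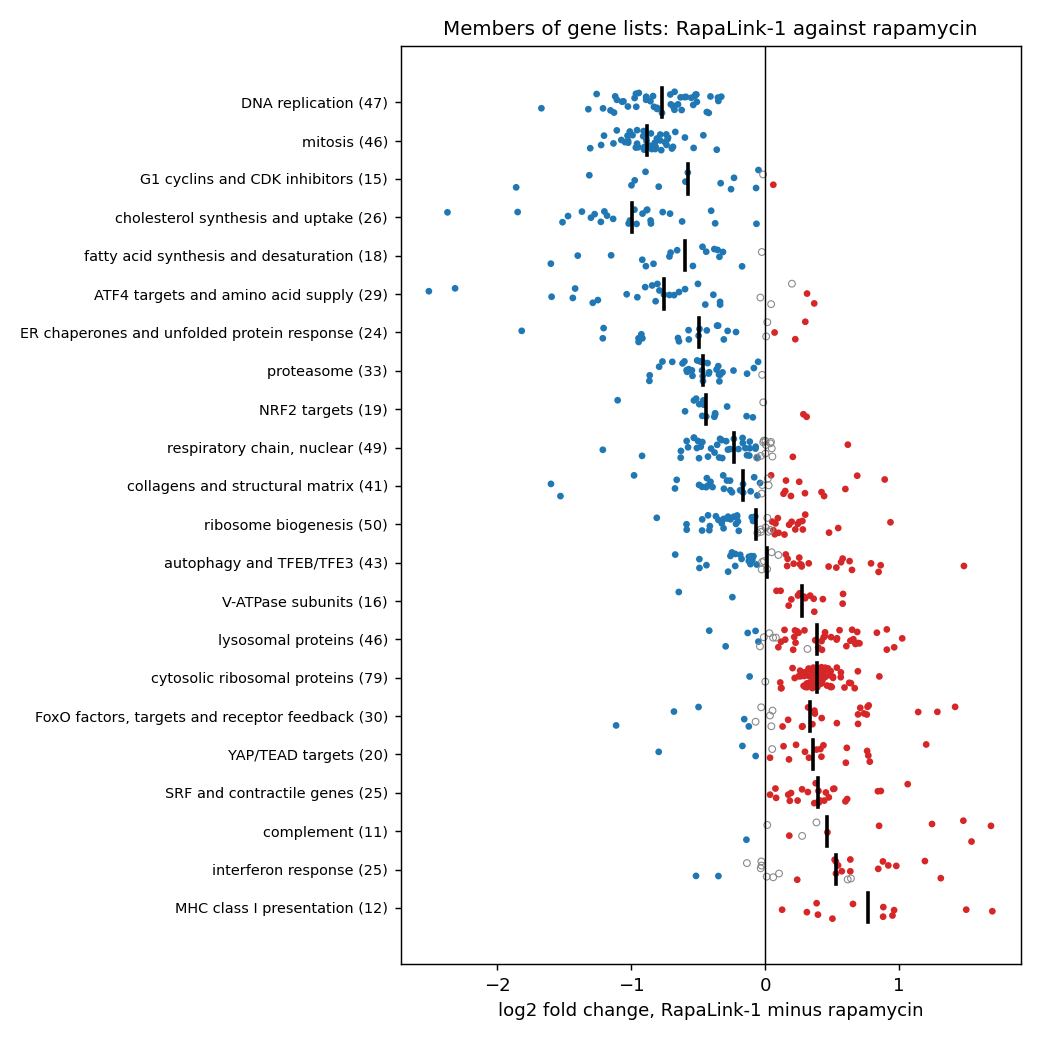
Log2 fold change of RapaLink-1 minus rapamycin for the tested members of 22 gene lists (number in brackets); red points were called higher, blue points lower, open points not called, and the bar is the list's median. The replication and mitosis lists lie wholly to the left of 0, and the contractile and class I presentation lists wholly to the right.

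Messages for lipid synthesis were lower with RapaLink-1, and those for sterol synthesis in every gene tested. SREBP2 and SREBP1 are the transcription factors that drive sterol and fatty acid synthesis genes, and mTORC1 is known to promote their activity. All 26 of 26 genes of cholesterol synthesis and uptake were lower, 13 of them by at least 2-fold against a background of 2.57%, with a median of -0.99. Against DMSO the list's median was -0.21 for rapamycin and -1.30 for RapaLink-1. Fdps, farnesyl diphosphate synthase, was at 137, 135 and 134 CPM with rapamycin and 49.6, 47.9 and 48.9 CPM with RapaLink-1 (log2 fold change -1.47 ± 0.027 (SE), adjusted p = 4.3e-103). Msmo1, a sterol C4 methyl oxidase, was at 263, 252 and 259 CPM with rapamycin and 112, 108 and 111 CPM with RapaLink-1 (log2 fold change -1.23 ± 0.021 (SE), adjusted p = 6.6e-108). The groups were fully apart for these enzymes, as they were for Sqle, squalene epoxidase (-1.01), and Hmgcs1, an early synthase of the pathway (-0.98).

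In the fatty acid list 17 of 18 genes were lower and none higher (median -0.60). Scd2, a stearoyl-CoA desaturase, was at 1278, 1333 and 1320 CPM with rapamycin and 493, 501 and 496 CPM with RapaLink-1 (log2 fold change -1.4 ± 0.015 (SE), adjusted p = 3e-137). Elovl6, which elongates palmitate, was at 111, 113 and 112 CPM with rapamycin and 37.9, 35.4 and 37.6 CPM with RapaLink-1 (log2 fold change -1.6 ± 0.030 (SE), adjusted p = 4.6e-101). Fatty acid synthase, Fasn, fell from 633, 635 and 648 CPM to 352, 364 and 359 CPM (log2 fold change -0.83 ± 0.016 (SE), adjusted p = 2.6e-99). Fads2 (-1.15) and Scd1 (-0.92) were lower too. The sterol regulatory letters TCACNCCAC were found in 1 of 22 promoters of the cholesterol list (4.55%, Hmgcs1), against 1.21% of promoters of tested genes and 1.24% of all.

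Some genes of lipid storage and use were higher. Beside Plin4, the droplet coat genes Plin2 (56.9, 55.6 and 57.8 CPM with rapamycin and 113, 112 and 116 CPM with RapaLink-1; log2 fold change 1.00 ± 0.028 (SE), adjusted p = 1.9e-77) and Plin3 (0.44) were higher, as was the lipase gene Lpl (0.74). Of 14 droplet proteins and lipases 6 were higher, a share not far from the 32.0% of all genes, and 2 lower, Hilpda (-0.26) and Dgat1 (-0.15). Of 22 genes of fatty acid oxidation 12 were higher, against 32.0% of all genes, and 5 lower (median 0.16). Cpt1a, which carries fatty acids into mitochondria, was at 59.7, 60.2 and 60.8 CPM with rapamycin and 94.4, 89.2 and 89.6 CPM with RapaLink-1 (log2 fold change 0.59 ± 0.029 (SE), adjusted p = 1.2e-45), and Eci1 (0.39) and Echs1 (0.29) were higher by less. The summed adipocyte markers were also higher with RapaLink-1, as given above. This sum came almost wholly from Fabp4 (0.35) and Pparg (0.57), and the other 4 of 6 markers were under 1 CPM in all 6 libraries. The part of these markers in the values above was not tested.

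ATF4, a transcription factor that mTORC1 and the integrated stress response both raise, drives amino acid transporters, serine synthesis and mitochondrial folate enzymes. Of 29 tested genes of that list 24 were lower and 2 higher, Chac1 (0.37) and Stc2 (0.31); the median was -0.76. Rapamycin alone already had a median of -0.71 against DMSO, and RapaLink-1 had -1.29. Psat1, an enzyme of serine synthesis, was at 198, 193 and 190.4 CPM with rapamycin and 63.2, 62.99 and 66.2 CPM with RapaLink-1 (log2 fold change -1.59 ± 0.024 (SE), adjusted p = 2.8e-116). Slc7a5, the transport subunit of the leucine transporter LAT1, was at 140.2, 138 and 141 CPM with rapamycin and 68.95, 67.9 and 67.9 CPM with RapaLink-1 (log2 fold change -1.03 ± 0.025 (SE), adjusted p = 3.1e-86). Atf4 itself was at 229, 226 and 226 CPM with rapamycin and 128, 124 and 127 CPM with RapaLink-1 (log2 fold change -0.84 ± 0.021 (SE), adjusted p = 3.6e-84), and Shmt2, which feeds serine carbon to Mthfd2, was lower as well (-0.81).

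Cytosolic tRNA synthetase genes, many of which ATF4 also drives, split 16 lower to 4 higher. Aars, for alanine, was at 376, 365 and 374 CPM with rapamycin and 168, 168 and 164 CPM with RapaLink-1 (log2 fold change -1.16 ± 0.019 (SE), adjusted p = 6.8e-111), and Mars (-0.88), Gars (-0.68) and Tars (-0.65) were lower, while Qars, for glutamine, was higher (log2 fold change 0.54 ± 0.020 (SE), adjusted p = 1.8e-59). Genes of purine and pyrimidine synthesis were divided, with 9 of 18 lower and 4 higher. Ppat, the first enzyme of purine synthesis, was lower (-0.49), as were Cad (-0.34) and Umps (-0.43) of pyrimidine synthesis. Ctps (0.32) and Impdh2 (0.30), which make CTP and GMP precursors, were higher.

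The C/EBP-ATF response element, the composite site of ATF4, was searched as TGATGNAA on both strands. It lay in 8 of 28 promoters of the ATF4 list (28.6%), against 2.27% of promoters of tested genes and 3.97% of all. The 3 promoters below belong to genes that were lower with RapaLink-1: Asns, asparagine synthetase (-0.68), Pycr1 of proline synthesis (-0.76) and the cystine transporter gene Slc7a11 (-0.60). Capitals mark the match, which occurs on both strands in Slc7a11; these genes were picked after their values were seen. Not every gene with a match was lower, since Chac1 holds one too and was higher.
Asns, chr6:7693210-7693247, minus strand: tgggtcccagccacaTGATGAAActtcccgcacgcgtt
Pycr1, chr11:120643829-120643866, minus strand: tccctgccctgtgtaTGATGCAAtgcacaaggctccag
Slc7a11, chr3:50443638-50443694, minus strand: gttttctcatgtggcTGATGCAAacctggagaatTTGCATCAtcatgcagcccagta

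Genes of protein folding in the ER and of the proteasome were lower. In the list of ER chaperones and the unfolded protein response 19 of 24 genes were lower and 3 higher, Ern1 (0.30), Dnajb9 (0.22) and Sel1l (0.07), with a median of -0.49. Calr, the lectin chaperone calreticulin, was at 1488, 1473 and 1455 CPM with rapamycin and 631, 639.8 and 635 CPM with RapaLink-1 (log2 fold change -1.21 ± 0.015 (SE), adjusted p = 2.5e-130). Hspa5, the master ER chaperone BiP, was at 1006, 999.6 and 995 CPM with rapamycin and 525, 531 and 533 CPM with RapaLink-1 (log2 fold change -0.92 ± 0.015 (SE), adjusted p = 1.4e-110). Pdia6, a disulfide isomerase, was at 651, 639 and 636 CPM with rapamycin and 344, 336 and 335 CPM with RapaLink-1 (log2 fold change -0.92 ± 0.016 (SE), adjusted p = 4.1e-106). Every RapaLink-1 library was below every rapamycin library for these genes, and also for the co-chaperone gene Dnajb11 (-1.21) and for Hsp90b1 (-0.64).

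The ER stress element is the site through which ATF6 raises ER chaperones. It lay in 8 of 20 promoters of the list (40%), against 0.129% of promoters of tested genes and 0.119% of all promoters. Shown here are the promoter stretches of Calr, Hspa5, Pdia6 and Creld2, an ER foldase gene (-0.95), with the whole element in capitals; Calr and Creld2 carry it on the opposite strand. These genes were picked after their values were seen, and Canx, which holds the element as well, had a log2 fold change of 0.01 (adjusted p = 0.71).
Calr, chr8:84847060-84847108, minus strand: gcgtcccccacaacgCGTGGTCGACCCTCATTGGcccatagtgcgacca
Hspa5, chr2:34772010-34772058, plus strand: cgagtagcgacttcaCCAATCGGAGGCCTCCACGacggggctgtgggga
Pdia6, chr12:17266476-17266524, plus strand: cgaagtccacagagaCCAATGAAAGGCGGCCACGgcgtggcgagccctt
Creld2, chr15:88819505-88819553, plus strand: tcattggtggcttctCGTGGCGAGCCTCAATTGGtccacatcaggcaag

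Of 33 proteasome genes 32 were lower, none was higher, and Psmd4 was not called (-0.02, adjusted p = 0.36); the median was -0.47. Psmd1, a scaffold of the regulatory particle, was at 284, 282 and 288 CPM with rapamycin and 157, 156 and 157 CPM with RapaLink-1 (log2 fold change -0.86 ± 0.020 (SE), adjusted p = 1.2e-89), and Psmb3 of the core was at 125, 117 and 121 CPM with rapamycin and 65.7, 67.2 and 66.8 CPM with RapaLink-1 (log2 fold change -0.86 ± 0.026 (SE), adjusted p = 1.6e-72). Rapamycin against DMSO had a proteasome median of -0.45, and RapaLink-1 had -0.98. Psmb8, Psmb9 and Psmb10 of the immunoproteasome belong to another list, below, and were higher. Heat shock genes, which include mitochondrial chaperones, were divided, 10 lower and 5 higher. Hspa4 (-0.54), Hspb8 (-0.48) and Dnaja1 (-0.38) were lower, whereas the abundant chaperone Hspa8 was at 1386, 1387 and 1375 CPM with rapamycin and 2362, 2340 and 2341 CPM with RapaLink-1 (log2 fold change 0.76 ± 0.014 (SE), adjusted p = 4.5e-105) and Hsp90ab1 was higher (0.43). The TCP1 ring, which folds actin and tubulin, split into 4 subunits higher, led by Cct4 (0.68) and Cct2 (0.40), and 4 lower, led by Cct3 (-0.23).

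Ribosomal protein messages were higher with RapaLink-1, while other genes of the translation apparatus were divided. The messages of ribosomal proteins and of several translation factors begin with a terminal oligopyrimidine (TOP) tract, through which mTORC1 controls their translation by way of 4E-BPs and LARP1. Of 79 ribosomal protein genes 77 were higher, 1 was lower, and Rps2 was not called (0.00, adjusted p = 0.98). The median was 0.38, against 0.0084 over all genes. Rapamycin had a median of -0.01 against DMSO for these genes, and RapaLink-1 had 0.38. Rpl10a was at 672, 655 and 646 CPM with rapamycin and 1179, 1197 and 1183 CPM with RapaLink-1 (log2 fold change 0.85 ± 0.015 (SE), adjusted p = 8.3e-106), Rpl12 was at 1164, 1107 and 1122 CPM with rapamycin and 1824, 1814 and 1842 CPM with RapaLink-1 (log2 fold change 0.69 ± 0.014 (SE), adjusted p = 1.4e-93), and Rps20 was at 720.4, 699 and 708 CPM with rapamycin and 1101, 1083 and 1100 CPM with RapaLink-1 (log2 fold change 0.63 ± 0.015 (SE), adjusted p = 9.1e-87). The 3 and 3 libraries were apart for 78 of the 79 genes, against 67.4% of all genes. Ribosomal protein genes have many processed pseudogenes, which can take reads from them or lend reads to them, so single members are less certain than their number.

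Eif4b, Eef2, Eef1a1 and Pabpc1, factors known to carry TOP tracts, were higher. Eif4b, a helper of the eIF4A helicase, was at 624, 615 and 619.7 CPM with rapamycin and 1280, 1304 and 1291 CPM with RapaLink-1 (log2 fold change 1.06 ± 0.015 (SE), adjusted p = 6.7e-122). Eef2, the translocation factor, was at 4413, 4326 and 4391 CPM with rapamycin and 7899, 7984 and 7839 CPM with RapaLink-1 (log2 fold change 0.85 ± 0.013 (SE), adjusted p = 1.4e-116). Eef1a1, which delivers tRNA to the ribosome, was at 10892, 10755 and 10677 CPM with rapamycin and 16489, 16803 and 16633 CPM with RapaLink-1 (log2 fold change 0.63 ± 0.012 (SE), adjusted p = 2.2e-100), and Pabpc1, the poly(A) binding protein, was higher (0.54). A list of 24 TOP messages outside the ribosomal proteins, drawn up after values were seen and partly shared with the translation factors, had 22 higher and 1 lower, Ybx1 (-0.43). Because its members were chosen with values in view, these counts do not test a contrast with other factors. Eif5a, a factor not known for the tract, was at 1047, 1003 and 1015 CPM with rapamycin and 583, 586 and 594 CPM with RapaLink-1 (log2 fold change -0.80 ± 0.015 (SE), adjusted p = 9.1e-101). Over all 47 translation factors 25 were higher and 16 lower (median 0.09).

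A C followed by at least 4 pyrimidines, starting within 10 bases of the annotated start, was present in 37 of 68 ribosomal protein promoters (54.4%) and 8 of 17 of the other TOP messages (47.1%). The share was 31.9% of the promoters of tested genes and 30.7% of all promoters; annotated starts need not be the starts used in these cells.

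Noncoding hosts of small nucleolar RNAs, several of which are TOP transcripts that are degraded when translated, were also examined, in a list of 16 drawn up after values were seen. Of these 11 were higher and 1 was lower, Snhg5 (-0.13), with a median of 0.42. Besides Zfas1, Epb41l4aos was at 9.797, 9.01 and 8.99 CPM with rapamycin and 28.4, 27.2 and 28.8 CPM with RapaLink-1 (log2 fold change 1.6 ± 0.056 (SE), adjusted p = 2.6e-63). Gas5 was at 123, 122 and 121 CPM with rapamycin and 179, 175 and 181 CPM with RapaLink-1 (log2 fold change 0.55 ± 0.022 (SE), adjusted p = 1.7e-55). The hosts Snhg12 (0.55) and Snhg1 (0.14) were higher too.

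Genes of ribosome assembly were split. Of 50 such genes 18 were higher and 25 lower, with a median of -0.07 that became 0.0081 with upper-quartile scaling. Npm1, a nucleolar chaperone with a TOP message, was at 1250, 1245 and 1233 CPM with rapamycin and 2368, 2366 and 2392 CPM with RapaLink-1 (log2 fold change 0.93 ± 0.014 (SE), adjusted p = 3.6e-117). Nolc1 (-0.59), Nop56 (-0.43) and Bysl (-0.81) were lower and Nop14 was higher (0.48). Against DMSO the list's median was -0.52 for rapamycin and -0.62 for RapaLink-1, and for ribosomal proteins it was -0.01 and 0.38, as above.

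Energy metabolism genes were divided by pathway. All 6 called genes of the pentose phosphate pathway, of 7 tested, were lower, led by Taldo1 (-0.80) and by Pgd, a source of NADPH, at 180.2, 176 and 179 CPM with rapamycin and 104, 108 and 109 CPM with RapaLink-1 (log2 fold change -0.74 ± 0.022 (SE), adjusted p = 1.2e-72). Glycolysis split 10 higher to 9 lower among 21 genes: Pgam1 (-0.70), Ldha (-0.52) and Pkm (-0.46) were lower and Eno2 was higher (0.80). Nuclear genes of the respiratory chain were mostly lower, 36 of 49 against 2 higher, with a median of -0.23. Cycs, cytochrome c, was at 96.5, 96.8 and 96.3 CPM with rapamycin and 42.8, 39.3 and 43.03 CPM with RapaLink-1 (log2 fold change -1.21 ± 0.030 (SE), adjusted p = 6.7e-84), and Uqcrq of complex III was lower (-0.92), while Uqcrc2 of the same complex was higher (0.21). Of the 13 mitochondrially encoded messages 5 were lower, a share not far from the 33.0% of all genes, and none was higher. mt-Nd1 was at 2596, 2586 and 2507 CPM with rapamycin and 2053, 2031 and 2049 CPM with RapaLink-1 (log2 fold change -0.33 ± 0.014 (SE), adjusted p = 1.7e-47); mt-Co1 (-0.06) and mt-Cytb (-0.04) had small differences that changed sign with the scaling, to 0.018 and 0.040 with upper-quartile factors. The largest fold, in mt-Nd3 (-1.13), was between levels of at most 0.31 CPM.

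The list of NRF2 targets, which detoxify and supply glutathione and NADPH, had 16 of 19 genes lower, against 33.0% of all genes, the NRF2 inhibitor gene Keap1 among them (-0.37), and 2 higher, Hmox1 (0.31) and Abcc1 (0.28); the median was -0.44. The quinone reductase gene Nqo1 was at 18.5, 18.2 and 18.6 CPM with rapamycin and 8.13, 8.83 and 8.76 CPM with RapaLink-1 (log2 fold change -1.1 ± 0.063 (SE), adjusted p = 5.3e-38), and Prdx1 (-0.52) and Gclm (-0.47) were lower. The core letters of the antioxidant response element, TGACNNNGC, lay in 36.8% of 19 promoters of the list, against 14.1% of promoters of tested genes and 12.4% of all. The iron uptake gene Tfrc, for the transferrin receptor, was at 138, 146 and 140.4 CPM with rapamycin and 58.2, 60.1 and 60.2 CPM with RapaLink-1 (log2 fold change -1.25 ± 0.025 (SE), adjusted p = 8.1e-97). Over the iron list 4 were higher and 7 lower of 12.

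Lysosomal genes were higher. TFEB and TFE3, factors that mTORC1 keeps out of the nucleus, drive lysosomal and autophagy genes through CLEAR elements. Of 46 genes for lysosomal proteins 35 were higher and 5 lower, against 32.0% higher and 33.0% lower over all genes, with a median of 0.38. Gaa, acid alpha-glucosidase, was at 283, 275 and 283 CPM with rapamycin and 520.3, 530.0 and 526 CPM with RapaLink-1 (log2 fold change 0.91 ± 0.017 (SE), adjusted p = 2.8e-102). Grn, progranulin, was at 403, 383 and 392 CPM with rapamycin and 604, 595 and 596 CPM with RapaLink-1 (log2 fold change 0.61 ± 0.016 (SE), adjusted p = 8.5e-79), and Ctsa (0.55) and the cholesterol transfer protein gene Npc2 (0.54) were higher. No group overlapped for these genes. The 5 genes called lower were Arsb (-0.42), Gusb (-0.30), Fuca1 (-0.13), Laptm4a (-0.07) and Ctsd (-0.05).

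The proton pump of the lysosome followed, with 14 of 16 V-ATPase subunits higher, against 32.0% of all genes (median 0.27), such as Atp6v1b2 (log2 fold change 0.58 ± 0.023 (SE), adjusted p = 1.1e-56) and Atp6v0d1 (0.58). The membrane subunits Atp6v0a2 (log2 fold change -0.65 ± 0.028 (SE), adjusted p = 3e-51) and Atp6v0a1 (-0.25) were lower. Autophagy genes as a whole were balanced, 19 higher and 18 lower, with a median of 0.014 that was below 0 when RapaLink-1 replicate 2 or rapamycin replicate 1 was left out (-0.011 each). Within that list the receptor genes Sqstm1 (371, 363 and 359 CPM with rapamycin and 620.3, 636 and 633 CPM with RapaLink-1; log2 fold change 0.79 ± 0.016 (SE), adjusted p = 4.8e-96) and Calcoco1 (0.86) were higher, and so were Flcn (0.58), Fnip1 (0.63), Fnip2 (0.65) and Rragd (1.48), parts of the Rag GTPase control of TFEB. Tfeb was not called (-0.03, adjusted p = 0.79).

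The CLEAR core TCACGTGA, which contains the E-box CACGTG, lay in 5 of 40 lysosomal promoters (12.5%), against 1.76% of promoters of tested genes and 0.974% of all. The bare E-box, searched in the ribosome assembly list, lay in 16.7% of its promoters, against 9.68% and 7.15%. Shown are the stretches of Mcoln1, a lysosomal calcium channel gene (0.70), and of Gla, alpha-galactosidase, which holds the core at 2 places (0.65), with the core in capitals; both were picked after their values were seen. Ctsd also holds the core and was lower by a small margin.
Mcoln1, chr8:3500458-3500495, plus strand: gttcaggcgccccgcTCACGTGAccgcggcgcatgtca
Gla, chrX:134601178-134601248, minus strand: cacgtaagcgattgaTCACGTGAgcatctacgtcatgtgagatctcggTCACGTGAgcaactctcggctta

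FoxO factors are held in the cytoplasm by AKT, downstream of mTORC2, and their targets include growth factor receptors. Of 30 genes of this list 20 were higher, against 32.0% of all genes, and 5 lower (median 0.34); against DMSO the median was 0.18 for rapamycin and 0.58 for RapaLink-1. Fbxo32, a ubiquitin ligase subunit of muscle atrophy, was at 24.9, 27.4 and 26.6 CPM with rapamycin and 68.7, 71.1 and 70.5 CPM with RapaLink-1 (log2 fold change 1.42 ± 0.037 (SE), adjusted p = 5.9e-82). Txnip, which curbs glucose uptake, was at 67.8, 67.9 and 66.6 CPM with rapamycin and 147, 151 and 148 CPM with RapaLink-1 (log2 fold change 1.14 ± 0.026 (SE), adjusted p = 1.4e-90). Irs2, the insulin receptor adaptor, was at 107, 105 and 109.8 CPM with rapamycin and 181, 183 and 181 CPM with RapaLink-1 (log2 fold change 0.76 ± 0.022 (SE), adjusted p = 3.4e-74). The groups were apart for these genes, and also for the receptor genes Fgfr1 (0.74) and Igf1r (0.37) and for Klf6 (0.69). Igf1r was at 118, 130.4 and 134 CPM with rapamycin and 169, 161 and 165 CPM with RapaLink-1. Lower members were Pdk4 (-1.11), Sesn1 (-0.68), Bcl6 (-0.50), Pdgfra (-0.16) and Gabarapl1 (-0.12). Sgk1, a direct mTORC2 substrate at the protein level, had overlapping groups at 237, 245 and 235 CPM with rapamycin and 239.7, 237 and 237 CPM with RapaLink-1, an approximate 95% interval of -0.05 to 0.04 and an adjusted p of 0.8. The FoxO letters GTAAACA lay in 3 of 26 promoters of the list (11.5%), against 2.57% of promoters of tested genes and 3.65% of all; the stretch of Txnip shows the match in capitals.
Txnip, chr3:96557821-96557857, plus strand: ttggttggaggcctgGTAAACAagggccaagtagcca

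Contractile genes were higher. SRF, helped by MRTF coactivators that respond to actin assembly, drives actin, myosin and calponin genes. All 25 of 25 genes of that list were higher (median 0.40, range 0.04 to 1.06), against 32.0% of all genes. Acta2, smooth muscle actin, was at 2462, 2392 and 2416 CPM with rapamycin and 3452, 3454 and 3433 CPM with RapaLink-1 (log2 fold change 0.51 ± 0.013 (SE), adjusted p = 1.4e-81). Myh9, non-muscle myosin heavy chain, was at 2030, 2094 and 2143 CPM with rapamycin and 3180, 3202 and 3108 CPM with RapaLink-1 (log2 fold change 0.60 ± 0.014 (SE), adjusted p = 2.9e-78). Tpm2 (0.52), Flna, filamin A (0.45), and Cald1, caldesmon (0.40), were higher. Defining muscle genes were at or near 0, as given above. RapaLink-1 stayed below Torin1 for 22 of these 25 genes by edgeR, against 2618 of all 15917 genes. In either direction 33.2% of all genes were called between RapaLink-1 and Torin1. Acta2 was at 5666 ± 55.9 CPM with Torin1.

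The CArG box, the SRF site, lay in 9 of 29 promoters of the contractile list (31%), against 1.34% of promoters of tested genes and 1.63% of all. The stretches show it in capitals for Cnn2, calponin 2 (0.41), Myl9, a myosin light chain (0.40), Srf itself (0.47) and Filip1l (0.38), picked after their values were seen. The Srf promoter holds it at 2 places, 82 and 62 bases before the start.
Cnn2, chr10:79988529-79988568, plus strand: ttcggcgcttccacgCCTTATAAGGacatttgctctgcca
Myl9, chr2:156775288-156775327, plus strand: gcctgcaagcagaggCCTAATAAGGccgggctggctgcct
Srf, chr17:46556200-46556259, minus strand: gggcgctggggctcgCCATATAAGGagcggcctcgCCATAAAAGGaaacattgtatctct
Filip1l, chr16:57549165-57549204, plus strand: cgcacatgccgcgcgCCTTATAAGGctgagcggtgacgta

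YAP and TAZ act with TEAD factors on genes of matrix contact and growth. Of 20 such genes 16 were higher, against 32.0% of all genes, and 3 lower (median 0.35). F3, tissue factor, was at 134, 129.6 and 132 CPM with rapamycin and 306, 304 and 302 CPM with RapaLink-1 (log2 fold change 1.2 ± 0.020 (SE), adjusted p = 3.2e-111). Crim1 was at 444, 443 and 448 CPM with rapamycin and 755, 753 and 755 CPM with RapaLink-1 (log2 fold change 0.76 ± 0.016 (SE), adjusted p = 8.2e-96), and Ankrd1 (0.78) and the matricellular gene Ccn1 (0.61) were higher. Those lower were Ccnd1, given above, Yap1 (-0.17) and Wwtr1 (-0.07). The TEAD letters GGAATG lay in 13 of 18 promoters (72.2%), against 12.4% of promoters of tested genes and 14.7% of all. In TGF-beta and BMP signalling 16 of 27 genes were higher, against 32.0% of all genes, and 4 lower. Grem1, a BMP antagonist (log2 fold change 0.62 ± 0.015 (SE), adjusted p = 1.2e-84), Inhba (0.56), the inhibitory Smad genes Smad6 (0.63) and Smad7 (0.49) and Tgfb2 (0.60) were higher.

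Immediate early genes were split, 11 higher and 14 lower of 26. Klf10 (0.85), Dusp1 (0.82) and Junb (0.53) were higher, and Egr1 was at 111, 109 and 107 CPM with rapamycin and 65.8, 67.4 and 67.02 CPM with RapaLink-1 (log2 fold change -0.71 ± 0.028 (SE), adjusted p = 1.9e-57) and Jun was lower (-0.47). Among cytokines and NF-kB targets 20 of 30 were higher, against 32.0% of all genes, and 4 lower (median 0.28). Ptgs2, cyclooxygenase 2, was at 190.2, 193 and 186 CPM with rapamycin and 389.8, 387 and 393 CPM with RapaLink-1 (log2 fold change 1.04 ± 0.018 (SE), adjusted p = 2e-106). Tnfaip3, an inhibitor of NF-kB, was at 76.2, 73.4 and 74.2 CPM with rapamycin and 159, 156 and 157 CPM with RapaLink-1 (log2 fold change 1.08 ± 0.025 (SE), adjusted p = 2e-89). Nfkbia (0.64) and Nfkb2 (0.52) were higher, and Il1rn, the interleukin 1 receptor antagonist, was lower (log2 fold change -0.96 ± 0.038 (SE), adjusted p = 1.1e-56).

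Complement and antigen presentation genes were higher. C3, the central complement component, was at 200.2, 202 and 209 CPM with rapamycin and 576, 572 and 559 CPM with RapaLink-1 (log2 fold change 1.48 ± 0.018 (SE), adjusted p = 2.8e-129), against 111 ± 1.08 CPM in DMSO and 423 ± 11.3 CPM with Torin1. C1s1 was at 139, 143 and 141 CPM with rapamycin and 408, 409.6 and 412 CPM with RapaLink-1 (log2 fold change 1.54 ± 0.019 (SE), adjusted p = 4.3e-130), and has a near-identical paralog that could share reads. C1ra was at 73.4, 72.7 and 71.7 CPM with rapamycin and 173, 173 and 170.2 CPM with RapaLink-1 (log2 fold change 1.25 ± 0.024 (SE), adjusted p = 5.2e-100). Of 11 tested complement genes 7 were higher, against 32.0% of all genes, and 1 was lower, C1qtnf1 (-0.14). By at least 2-fold 4 were higher, against 3.14% of all genes. C4b, 1 of these 4, was under 1 CPM in all 6 libraries. The summed leukocyte markers were 2.53 to 3.71 CPM with rapamycin and 4.04 to 4.42 CPM with RapaLink-1; their part in these values was not tested.

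All 12 of 12 genes of class I presentation were higher, against 32.0% of all genes (median 0.77). Psmb10, an immunoproteasome subunit, was at 23.9, 25.02 and 24.7 CPM with rapamycin and 42.004, 47.5 and 45.7 CPM with RapaLink-1 (log2 fold change 0.88 ± 0.041 (SE), adjusted p = 4.6e-48). Erap1, which trims peptides in the ER, was at 28.2, 31.1 and 30.5 CPM with rapamycin and 46.1, 48.2 and 46.96 CPM with RapaLink-1 (log2 fold change 0.66 ± 0.039 (SE), adjusted p = 1.4e-36). H2-D1, a class I heavy chain with close paralogs, was at 98.6, 94.9 and 96.7 CPM with rapamycin and 127, 126 and 126 CPM with RapaLink-1 (log2 fold change 0.38 ± 0.024 (SE), adjusted p = 2e-33), and Tapbp, tapasin, was higher (0.39). The largest differences, in Psmb8 (1.7) and in Nlrc5, the class I transactivator (1.5), were between low levels. Nlrc5 was at 2.4005, 3.196 and 2.54 CPM with rapamycin and 8.36, 6.99 and 7.59 CPM with RapaLink-1. Of 25 interferon response genes 14 were higher, against 32.0% of all genes, and 2 lower (median 0.53). Gbp2, a guanylate-binding GTPase, was at 26.3, 23.9 and 23.3 CPM with rapamycin and 61.4, 60.5 and 60.3 CPM with RapaLink-1 (log2 fold change 1.31 ± 0.039 (SE), adjusted p = 2.2e-73), and Bst2 (0.88), Xaf1 (0.84), Irf9 (0.64) and the RNA sensor gene Ddx58 (0.53) were higher. Ifit2 was lower (-0.35).

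Matrix genes were mostly lower. Of 41 collagens and structural matrix genes 25 were lower and 12 higher (median -0.16). Col1a2, a chain of type I collagen, was at 6382, 6286 and 6406 CPM with rapamycin and 4018, 4055 and 3991 CPM with RapaLink-1 (log2 fold change -0.66 ± 0.013 (SE), adjusted p = 4e-100). Col3a1, of type III collagen, was at 447, 441 and 451 CPM with rapamycin and 226, 229.7 and 224 CPM with RapaLink-1 (log2 fold change -0.98 ± 0.018 (SE), adjusted p = 7.6e-105). The collagen chaperone gene Serpinh1 (-0.47) and Sparc (-0.43) were lower, and Thbs2, thrombospondin 2, was higher (log2 fold change 0.89 ± 0.025 (SE), adjusted p = 6.2e-77). Among proteases and inhibitors 10 of 20 were higher, against 32.0% of all genes, and 5 lower. Mmp13 was at 6.48, 6.77 and 5.92 CPM with rapamycin and 20.5, 18.9 and 18.8 CPM with RapaLink-1 (log2 fold change 1.6 ± 0.069 (SE), adjusted p = 2e-52), Mmp3 (1.17), Mmp11 (0.47) and Mmp14 (0.28) were higher, and Adamts1 was lower (-0.52). The summed fibroblast markers, which include collagens, were lower with RapaLink-1, as given above, but the members were divided. Col1a1, Col1a2, Col3a1, S100a4, Prrx1, Pdgfra, Twist1 and Lum were called lower. Vim (0.64), Dcn (0.44) and Fn1 (0.19) were called higher, and Thy1 and Pdgfrb were not called.

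Secreted growth regulators differed gene by gene. In the IGF list 6 were higher and 6 lower of 13, with a median of -0.014 that was 0.060 with upper-quartile scaling and 0.087 over members with at least 5 CPM. Igf2r, the scavenging receptor for IGF2, was at 199.6, 207 and 209.8 CPM with rapamycin and 378, 381 and 375 CPM with RapaLink-1 (log2 fold change 0.88 ± 0.019 (SE), adjusted p = 2.8e-94). Igf2 was higher (0.42), and the binding protein genes Igfbp3 (log2 fold change -0.78 ± 0.036 (SE), adjusted p = 1.1e-48), Igfbp6 (-0.54) and Igfbp4 (-0.50) were lower. In the Wnt list 9 were higher and 11 lower of 26, and the median of -0.13 was 0.052 over members with at least 5 CPM. Dkk2, a Wnt modulator, was at 75.1, 75.4 and 78.4 CPM with rapamycin and 27.6, 27.7 and 26.7 CPM with RapaLink-1 (log2 fold change -1.48 ± 0.035 (SE), adjusted p = 5.6e-87), Sfrp2 (-0.96) and Fzd1 (-0.48) were lower, and Fzd7 (0.52) and Nkd2 (1.07) were higher.

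The remaining lists were mostly split, and their counts stand beside 32.0% of all genes higher and 33.0% lower. SR splicing factors and their kinases had 12 of 18 lower and 3 higher (median -0.25), with Tra2b (-0.60), Srsf3 (-0.52), Srsf2 (-0.51), Srsf7 (-0.46) and Srsf1 (-0.44) lower. In polyamine metabolism 6 of 10 were lower, among them Oaz1 (log2 fold change -0.74 ± 0.019 (SE), adjusted p = 1.2e-80), Amd1 (-0.61) and Srm (-0.43), and 3 were higher, Paox (0.60), Smox (0.29) and Sat1 (0.20). The MYC network had 5 higher and 6 lower; Mxd3, a MAX partner linked to S phase, was at 28.1, 25.2 and 27.7 CPM with rapamycin and 12.6, 10.7 and 11.4 CPM with RapaLink-1 (log2 fold change -1.23 ± 0.055 (SE), adjusted p = 5.4e-50) and Mycl was higher (0.79). Its median of -0.10 was 0.066 over members with at least 5 CPM. p53 targets were 5 higher and 10 lower, with Sesn2 and Sesn1, given above, and Aen (-0.52) lower and Plk2 (0.28), Mdm4 (0.42) and Perp (0.51) higher. Hypoxia genes were 7 higher and 9 lower, with Higd1a at 25.4, 25.5 and 26.6 CPM with rapamycin and 10.2, 11.6 and 11.3 CPM with RapaLink-1 (log2 fold change -1.22 ± 0.054 (SE), adjusted p = 1.4e-50) and Bhlhe40 higher (0.75); their median of -0.02 was 0.059 with upper-quartile scaling. Clock genes were 8 higher and 7 lower, with Bhlhe41 (0.82) and Rora (1.37) higher and Cry1 (-0.69) and Arntl (-0.56) lower.

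**Figure D4:**
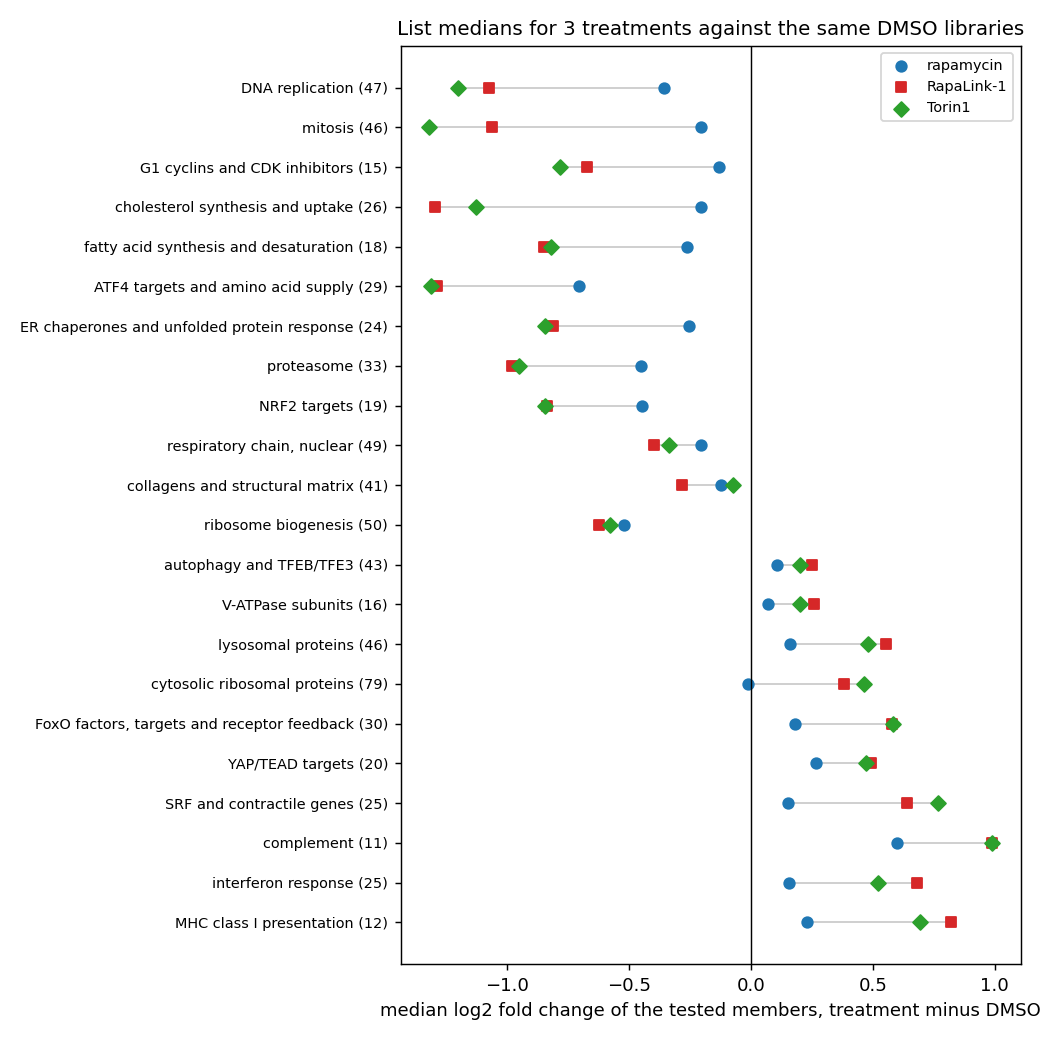
Median log2 fold change of 22 gene lists for rapamycin (circles), RapaLink-1 (squares) and Torin1 (diamonds), each against the same 3 DMSO libraries, with the number of tested members in brackets. For the mitosis list rapamycin is at -0.21, RapaLink-1 at -1.06 and Torin1 at -1.32, and for ribosomal proteins they are at -0.01, 0.38 and 0.47.

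Torin1 against DMSO shares no library with RapaLink-1 against rapamycin, so the 2 comparisons can be set side by side. Torin1 against DMSO called 12422 genes (78.0%). Of the 9288 genes called in both comparisons 8553 had the same sign (92.1%) and 735 the opposite sign. Over all 15917 genes 80.2% had the same sign and Pearson's r across genes was 0.75, as a description, since genes are not independent. Of the 909 genes at least 2-fold apart between RapaLink-1 and rapamycin, 779 differed in the same direction between Torin1 and DMSO, 17 in the opposite direction, and 113 were not called there. Between RapaLink-1 and Torin1 themselves 5277 genes were called (33.2%), 53 of them at least 2-fold higher and 173 at least 2-fold lower with RapaLink-1. Of the 46 mitosis genes 44 were higher with RapaLink-1 than with Torin1, against 2659 of all 15917 genes, and none was lower. The median log2 difference of the 46 genes was 0.22.

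Some genes were beyond both other drugs with RapaLink-1. Cgnl1, a junction protein gene, was at 64.003, 64.1 and 63.6 CPM with rapamycin and 119.5, 123 and 119 CPM with RapaLink-1 and at 82.02 ± 0.142 CPM with Torin1; its log2 difference from rapamycin was 0.92 and from Torin1 0.56 (adjusted p = 2.9e-47). Krt19, a keratin of epithelia, whose other markers summed to 0.741 to 1.18 CPM with rapamycin and 0.585 to 0.964 CPM with RapaLink-1, was at 9.13, 10.4 and 10.5 CPM with rapamycin and 21.8, 21.3 and 21.1 CPM with RapaLink-1 and at 13.8 ± 0.619 CPM with Torin1, with a difference from Torin1 of 0.64 (adjusted p = 8.9e-21). Ass1, which makes argininosuccinate, had 0.98 and 0.56 (adjusted p = 3.7e-38), the integrin gene Itga2 had 0.69 and 0.63 (adjusted p = 1.7e-16), and Col7a1 had 0.61 and 0.59 (adjusted p = 5.7e-25). All these were highest with RapaLink-1.

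On the low side stood Aspn, asporin, a matrix proteoglycan, at 26.8, 27.2 and 28.6 CPM with rapamycin and 9.83, 9.76 and 10.2 CPM with RapaLink-1 and at 26.6 ± 0.326 CPM with Torin1, a difference from Torin1 of -1.42 (adjusted p = 1.4e-57). Peg10 was at 114, 127 and 123 CPM with rapamycin and 39.7, 36.7 and 37.01 CPM with RapaLink-1 and at 77.7 ± 1.33 CPM with Torin1, a difference of -1.04 (adjusted p = 1.9e-59). Sfrp2, a secreted Wnt inhibitor, was at 75.3, 70.6 and 74.6 CPM with rapamycin and 36.8, 38.8 and 37.6 CPM with RapaLink-1 and at 69.98 ± 1.39 CPM with Torin1, a difference of -0.89 (adjusted p = 1.7e-59). Gas2 was also lower than with Torin1, by a difference of -0.88 (adjusted p = 2.4e-19), and so was Adm, adrenomedullin, with -0.85 (adjusted p = 5.2e-27). In each of these the RapaLink-1 libraries were the lowest of the 12.

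**Figure D5:**
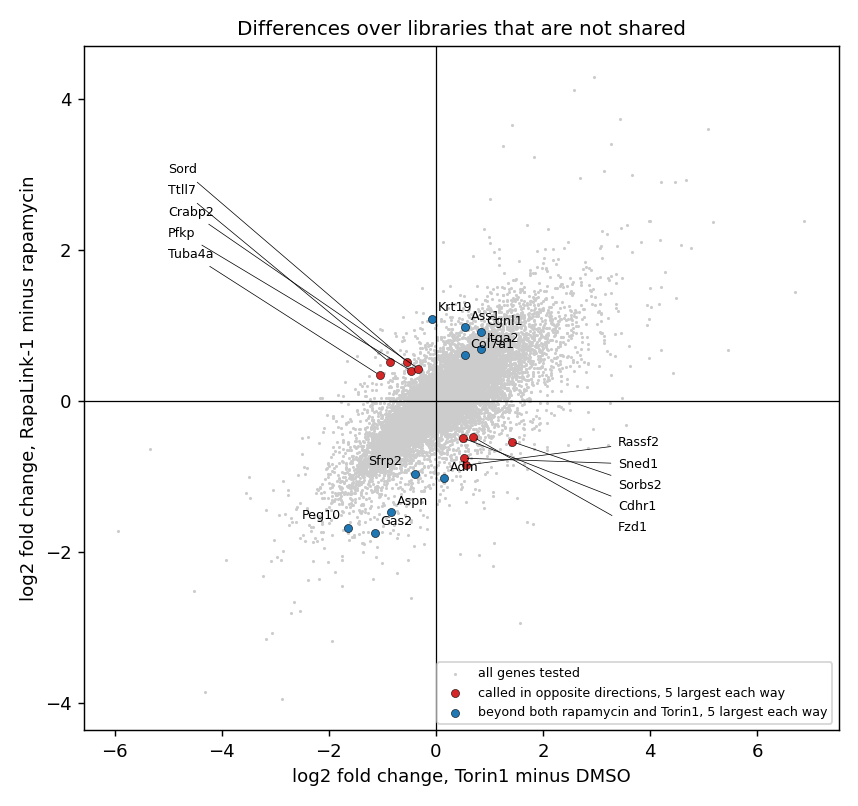
Log2 fold change of RapaLink-1 minus rapamycin against that of Torin1 minus DMSO, comparisons with no shared library, 1 point per gene tested. Red points are genes called in opposite directions and blue points genes in which RapaLink-1 was beyond both rapamycin and Torin1; most of the 15917 genes lie to the upper right or lower left of the origin (80.2% with the same sign).

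The 735 genes called in opposite directions in these comparisons included 17 of the 2-fold genes. Sord, sorbitol dehydrogenase, was at 42.98, 41.3 and 42.2 CPM with rapamycin and 60.5, 61.5 and 59.7 CPM with RapaLink-1, against 66.5 ± 2.48 CPM in DMSO and 45.6 ± 1.14 CPM with Torin1. RapaLink-1 was thus above rapamycin (log2 fold change 0.52 ± 0.034 (SE), adjusted p = 6.4e-33), while Torin1 was below DMSO (-0.54). Ttll7, a tubulin glutamylase gene (0.52 and -0.86), the platelet phosphofructokinase gene Pfkp (0.40 and -0.46), Tuba4a (0.34 and -1.05) and Crabp2 (0.43 and -0.33) had the same pattern. In the other direction Rassf2 was at 20.2, 21.6 and 21.4 CPM with rapamycin and 12.6, 11.7 and 10.9 CPM with RapaLink-1, against 14.8 ± 0.665 CPM in DMSO and 21.7 ± 0.805 CPM with Torin1 (-0.85 and 0.55). Sned1 (-0.76 and 0.52), the adaptor gene Sorbs2 (-0.53 and 1.41), Cdhr1 (-0.49 and 0.50) and Fzd1 (-0.48 and 0.70) were lower than with rapamycin but higher with Torin1 than with DMSO.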

How the data were processed

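RNA was sequenced from 12 libraries of mouse embryonic fibroblasts, 3 per treatment. The authors deposited 1 table of raw read counts per gene for each library, per the file headers. The submitters' processing notes name Trimmomatic 0.36, STAR 2.5.2b, featureCounts, Subread 1.5.2, DESeq2 and the build GRCm38. Not given in the sources used here are the read length, the strand setting and the annotation release.

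Here, genes were filtered with filterByExpr and scaled with TMM, and all 12 libraries were fitted together with edgeR 4.0.16 (R 4.3.3), using glmQLFit with robust estimation and glmQLFTest (8 residual degrees of freedom). P-values were adjusted by Benjamini-Hochberg over all 15917 genes, with 0.05 as the threshold for a call. Sharing 1 estimate of the spread matters, because an exact permutation test of 3 against 3 libraries cannot go below 0.1. Intervals of differences use the SE and the residual degrees of freedom. The biological coefficient of variation was 1.48%, so small differences pass the test. The scripts were tested on simulated data.

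The 49 pathway lists and 8 marker lists and the members were chosen with earlier results of these data known. These lists hold 1291 symbols, all matched, 2 of them through a RefSeq synonym. Promoters shown, list exceptions and the lists of TOP messages, small nucleolar RNA hosts and HOX genes were chosen after values were seen. Genes are named by rule: the 14 largest rises and falls at a mean of at least 10 CPM without overlapping groups, up to 5 members of each list with the smallest p, a set of mTOR pathway genes, and up to 5 genes per direction beyond both other drugs or opposite to Torin1 against DMSO. Alternatives were other scalings, filters, DESeq2 1.42.0, the 6 libraries alone, a replicate block and each library left out. Results for a few genes are not reported here.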

Additional observations from a re-analysis of the deposited data

How the results depend on the processing

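The 10348 genes called by edgeR's quasi-likelihood test became 9507 with the DESeq2 test and 10607 with upper-quartile scaling, and 9779 to 9995 with each library left out in turn; genes at least 2-fold apart numbered 909, 832 with DESeq2, 788 with the 6 libraries alone and 919 to 944 with a library left out. Among genes averaging 5 CPM or more, where fewer genes were tested, 256 were at least 2-fold apart, 116 higher and 140 lower. Replicate numbers did not pair the libraries: the deviations of same-numbered libraries correlated at -0.00186, -0.0404 and 0.0127, and a replicate block called 10348 genes (5092 higher, 5256 lower). Of 282 named genes mt-Co1 (0.018) and mt-Cytb (0.0396) changed sign with upper-quartile scaling; the cause was not tested. That scaling moved 45 of 49 list medians beyond the replicate SD and turned 4, ribosome biogenesis (0.00811), IGF (0.0604), hypoxia (0.0594) and the TCP1 ring (0.0705). The filter at 5 CPM, which tests fewer genes and moved the median of all genes by 0.0275, turned the IGF (0.0868), Wnt (0.0522) and MYC network (0.066) medians, the TCP1 ring (0.0234), which lost no member, and the histone list (0.376), of which 1 gene was left. The autophagy median turned without RapaLink-1 replicate 2 (-0.0109) and without rapamycin replicate 1 (-0.0113), and reached 0.0229 without rapamycin replicate 2. Depth limits genes near the filter, such as mt-Nd3, where a few reads decide the value.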

Other observations

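The values of a few genes used as markers of stromal cells were picked after they were seen and stand for no group. Ly6a, which encodes Sca-1, was at 52.8, 47.1 and 48.9 CPM with rapamycin and 11.95, 14.3 and 14.1 CPM with RapaLink-1. Cd34, a sialomucin of stromal progenitors, was at 274, 267 and 271 CPM with rapamycin and 123, 125 and 124 CPM with RapaLink-1, and Ly6c1, a relative of Ly6a, was at 15.8, 15.8 and 16.3 CPM with rapamycin and 4.93, 5.81 and 5.48 CPM with RapaLink-1. The groups did not overlap for these genes. S100a4, a marker of fibroblasts, was at 331, 328 and 328 CPM with rapamycin and 146, 149 and 152 CPM with RapaLink-1 (log2 fold change -1.14 ± 0.020 (SE), adjusted p = 6.6e-108). The fibroblast surface marker gene Thy1 was at 82.5, 81.5 and 79.9 CPM with rapamycin and 82.4, 78.7 and 79.4 CPM with RapaLink-1 (log2 fold change -0.02 ± 0.027 (SE), adjusted p = 0.53), and Pdgfrb was at 318, 320.0 and 331 CPM with rapamycin and 314, 320.2 and 315 CPM with RapaLink-1 (log2 fold change -0.03 ± 0.018 (SE), adjusted p = 0.13). Dcn, decorin, another fibroblast marker, was higher (0.44), and so was Vim, vimentin (0.64), which is also a TOP message.

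HOX genes, which keep positional identity in fibroblasts, were listed after values were seen. Of 29 tested genes 7 were lower and 3 higher by edgeR's quasi-likelihood test, Hoxb4 (0.47), Hoxd9 (0.72) and Hoxd4 (0.89), against 33.0% and 32.0% of all genes, and the median was -0.29.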
